A study of Homo sapiens with 56 samples.

Results

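The genes described here are 50 genes of mitosis and the G2/M transition, out of 19775 genes that the arrays measured with a probe set of a single symbol. They were chosen by name from what their products do in dividing cells, with earlier results of these data known. All 50 were measured and all 50 passed the filter on low signals in each comparison. By role, 9 belong to the CDK1-cyclin switch that starts mitosis, 6 are mitotic kinases or partners of the chromosomal passenger complex, 8 act in the spindle checkpoint or with the anaphase-promoting complex (APC/C), 9 build centromeres and kinetochores, 8 are kinesin motors, 8 organise the spindle and cytokinesis, and 2 (MKI67 and TOP2A) mark and untangle chromosomes of cycling cells.

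Cells entering mitosis activate the kinase CDK1 through cyclins A and B, and the transcripts of these genes build up in G2 under the FOXM1, B-MYB and NF-Y factors. The DREAM complex holds the same genes down in resting cells through an element called the CHR, for cell cycle genes homology region. Spindle checkpoint proteins then restrain the APC/C until all kinetochores are attached, and the APC/C activated by CDC20 destroys securin (PTTG1) and cyclin B. In lymphoma cell cultures these transcripts are widely read as marks of the share of cells in G2 and mitosis. In bulk RNA, fewer cells in these phases and less of each transcript per cell cannot be told apart.

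The study exposed cutaneous T cell lymphoma (CTCL) lines to cobomarsen (MRG-106), an antisense oligonucleotide inhibitor of the microRNA miR-155, and measured their messenger RNA on Affymetrix arrays, after 4 days for direct targets and after 8 days for later ones. HuT102, MJ and MY-LA were each taken untreated and with cobomarsen on days 4 and 8, and HuT78 untreated and with cobomarsen on day 8, which gives 14 groups of 4 arrays and 56 arrays in all. All are established human CTCL lines, and the labels give no transgene or other alteration. The compound was added to the medium; after 96 h the untreated wells were counted, all wells received the dilution that took untreated wells back to the density at seeding, and the cells were passaged with or without inhibitor and given new medium 48 h later, so on day 8 cell density and treatment cannot be told apart. The arrays used here hold no control oligonucleotide, so the effect of inhibiting miR-155 and that of any oligonucleotide cannot be told apart. Whether the 4 arrays of a group came from separate cultures is not in the labels, so the p-values measure only the spread between these samples, which may be technical. HuT102 and MJ samples carry another number series in their labels than HuT78 and MY-LA samples, and series and line cannot be told apart.

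Values are microarray signals scaled by the submitters to the same trimmed mean, and a log2 change is the mean of log2(signal + 16) with cobomarsen minus that without it, ± its standard error. Adjusted p-values are from limma with Benjamini-Hochberg adjustment over all genes tested, and a gene is said to have risen or fallen where that value was under 0.05. Group values are means ± SD of 4 arrays. Array medians ran from 56.4 to 91.7 and arrays of a group correlated at 0.957 to 0.98. Of 12 T cell markers, 10 were above the median signal of all arrays in every group of HuT102, MJ and HuT78, and 7 in those of MY-LA. In MY-LA, CD4 (46 to 86), CD5 (15.6 to 31.4), CD7 (12.4 to 32.9), CD28 (26.6 to 69.4) and LCK (10 to 15) were low. CD2 was at 44.4 to 44.5 in HuT78. Of 4 epithelial markers, 4 were above that median in HuT78, with EPCAM at 8889 to 8926, and 2 in MY-LA, with CDH1 at 623 to 2204 but EPCAM at 13.5 to 21.0. Of 4 B cell markers, 2 were above it in every HuT102 group, with PAX5 at 1148 to 1687 but CD79B at 8.91 to 24.8, and 3 in HuT78. Of 4 myeloid markers, 2 were above it in every group of MJ and of MY-LA, and 1 in those of HuT102 and HuT78. Of 3 NK markers 1 was above it in every HuT102 group, and of 3 fibroblast markers 1 in those of HuT102 and MJ. For the transcript that hosts miR-155, the signal was 10.0 to 55.2 in HuT78 and 10496 to 32332 in the other lines.

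The mature miR-155-5p that the compound is directed against is shown first, from RefSeq (GRCh38.p14, chr21:25573983-25574006, plus strand), 5′ to 3′, with its seed, bases 2 to 8, in capitals.
hsa-miR-155-5p: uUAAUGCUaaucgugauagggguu

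Promoters of 43 of the 50 genes were in the RefSeq table used (GRCh38.p14, 250 bases before to 50 after the first listed start, 300 in all). They were searched on both strands for the CHR letters TTTGAA or TTCGAA and for the NF-Y box letters CCAAT. The CHR letters stood in 33 of 43 promoters of these genes (76.7%) and in 16.6% of all 27305 promoters of the same length, and in 13.3% of the 15384 promoters of genes on the array. CCAAT stood in 72.1% of the members' promoters against 35.7% of all, at least 2 copies of it in 46.5% against 11.3%, and both motifs in 58.1% against 6.58%. With any listed start counted, the CHR letters were in 81.4% of the members and 19.5% of all genes. Of the members' CHR matches, 76.7% lay from 60 bases before to 50 after the start, against 29.4% of matches in all promoters, and the median position was -26 against -127; of their CCAAT matches, 63.4% lay from 110 to 40 bases before it, against 37.6%. Those windows were chosen after the positions had been seen. A match is a description of letters, not of binding. No other form of the CHR was searched for, so a promoter without a match is not shown to lack the element.

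The following promoters are printed 5′ to 3′ on the gene's strand, with matches in capitals. CCNB2 (chr15:59104896-59105195 on the plus strand) is printed for its several CCAAT boxes, 4 of them, upstream of a CHR match 29 bases before the start. CDK1 (chr10:60778081-60778380 on the plus strand), KIF23 (chr15:69414099-69414398 on the plus strand) and PLK1 (chr16:23678639-23678938 on the plus strand) are members that fell in HuT102 and MJ. CDC20 (chr1:43358731-43359030 on the plus strand) and PTTG1 (chr5:160421605-160421904 on the plus strand) rose where most members fell, in HuT102 and MJ respectively. PTTG1 holds neither TTTGAA nor TTCGAA in this window. MKI67 (chr10:128126374-128126673 on the minus strand) has a CHR match and a CCAAT box that overlap.
CCNB2: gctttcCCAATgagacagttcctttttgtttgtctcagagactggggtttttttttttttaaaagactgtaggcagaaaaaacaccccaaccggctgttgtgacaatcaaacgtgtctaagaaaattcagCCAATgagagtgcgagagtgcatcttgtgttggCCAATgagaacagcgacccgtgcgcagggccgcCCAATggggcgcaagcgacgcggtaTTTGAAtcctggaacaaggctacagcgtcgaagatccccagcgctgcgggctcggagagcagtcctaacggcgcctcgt
CDK1: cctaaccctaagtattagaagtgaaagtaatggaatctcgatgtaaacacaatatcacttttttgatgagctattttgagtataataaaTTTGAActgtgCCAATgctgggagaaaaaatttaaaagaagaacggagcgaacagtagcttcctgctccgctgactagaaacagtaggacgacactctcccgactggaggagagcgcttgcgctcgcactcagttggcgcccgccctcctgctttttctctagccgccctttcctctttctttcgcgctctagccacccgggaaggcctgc
KIF23: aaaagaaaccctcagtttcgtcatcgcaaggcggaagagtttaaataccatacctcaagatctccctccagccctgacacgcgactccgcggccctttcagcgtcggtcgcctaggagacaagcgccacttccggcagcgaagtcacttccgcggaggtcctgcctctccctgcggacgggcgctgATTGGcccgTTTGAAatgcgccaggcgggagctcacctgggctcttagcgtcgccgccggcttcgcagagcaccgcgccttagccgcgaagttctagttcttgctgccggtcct
PLK1: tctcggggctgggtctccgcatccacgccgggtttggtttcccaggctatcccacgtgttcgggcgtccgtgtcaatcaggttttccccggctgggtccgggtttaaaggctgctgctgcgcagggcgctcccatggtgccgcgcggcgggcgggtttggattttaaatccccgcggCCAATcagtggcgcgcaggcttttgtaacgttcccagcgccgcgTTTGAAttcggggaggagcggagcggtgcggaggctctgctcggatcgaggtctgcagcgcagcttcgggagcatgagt
CDC20: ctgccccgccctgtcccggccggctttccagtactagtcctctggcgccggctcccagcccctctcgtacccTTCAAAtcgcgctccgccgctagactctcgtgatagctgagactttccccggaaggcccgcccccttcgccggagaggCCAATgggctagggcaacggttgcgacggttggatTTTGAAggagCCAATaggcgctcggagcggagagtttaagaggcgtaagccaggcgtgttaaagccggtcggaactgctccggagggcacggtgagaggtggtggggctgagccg
PTTG1: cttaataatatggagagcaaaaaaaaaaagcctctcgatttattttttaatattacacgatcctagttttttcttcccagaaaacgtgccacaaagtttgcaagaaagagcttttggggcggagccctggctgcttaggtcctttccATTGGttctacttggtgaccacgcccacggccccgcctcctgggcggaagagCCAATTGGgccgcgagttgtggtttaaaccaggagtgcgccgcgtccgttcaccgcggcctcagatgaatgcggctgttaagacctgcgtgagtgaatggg
MKI67: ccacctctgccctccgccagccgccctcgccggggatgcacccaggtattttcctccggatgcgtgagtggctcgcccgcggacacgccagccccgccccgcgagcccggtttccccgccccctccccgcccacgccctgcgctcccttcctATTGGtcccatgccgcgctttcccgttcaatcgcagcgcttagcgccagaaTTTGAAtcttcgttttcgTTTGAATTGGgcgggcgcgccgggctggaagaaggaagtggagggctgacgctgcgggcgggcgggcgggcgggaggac

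**Figure D1:**
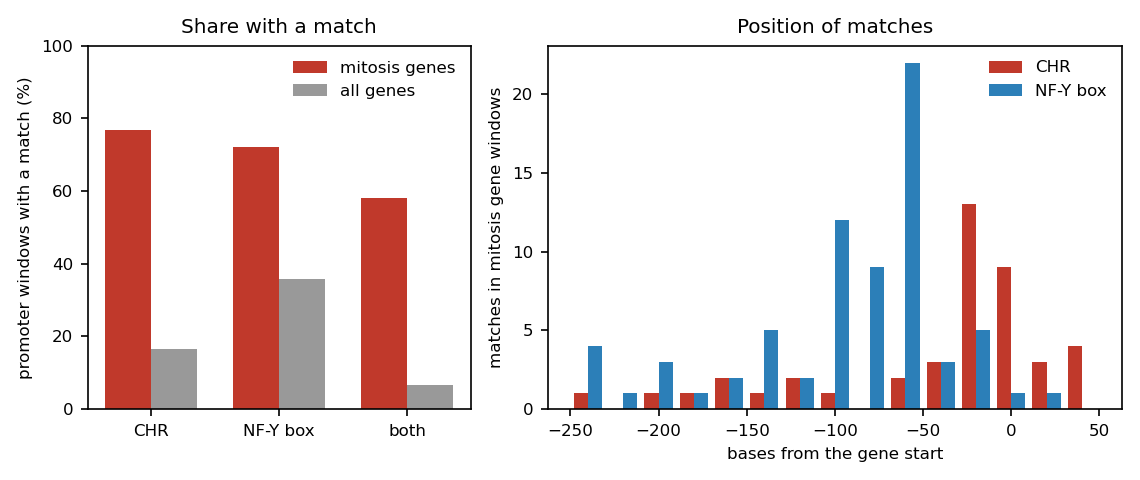
Left, share of promoters (%) with the CHR letters, the CCAAT letters of the NF-Y box, or both, for 43 member genes and all 27305 promoters; right, positions of the members' matches in bases from the start. The members' shares are 76.7%, 72.1% and 58.1% against 16.6%, 35.7% and 6.58%, and the CHR matches gather near the start.

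Across the 50 genes, the mean of log2(signal + 16) gives each array a single level. In HuT102 it was 11.06 (11.02 to 11.09 over 4 arrays) untreated and 10.71 (10.68 to 10.76) with cobomarsen on day 4, and 10.91 (10.84 to 11.00) and 10.07 (9.95 to 10.14) on day 8, with no overlap on either day. In MJ it was 11.11 (11.04 to 11.19) untreated and 11.12 (11.05 to 11.19) with cobomarsen on day 4, where the arrays overlapped, and 11.30 (11.27 to 11.33) and 10.94 (10.93 to 10.95) on day 8, where they did not. MY-LA stood at 11.32 (11.29 to 11.33) and 11.30 (11.27 to 11.33) on day 4 and at 11.18 (11.07 to 11.29) and 11.29 (11.29 to 11.30) on day 8, with overlapping arrays on both days. HuT78 had 11.36 (11.29 to 11.41) untreated and 11.49 (11.43 to 11.54) with cobomarsen. The level thus went down in HuT102 on both days and in MJ on day 8 only, and was nearly level or up in the remaining lines; no test was made of this mean.

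**Figure D2:**
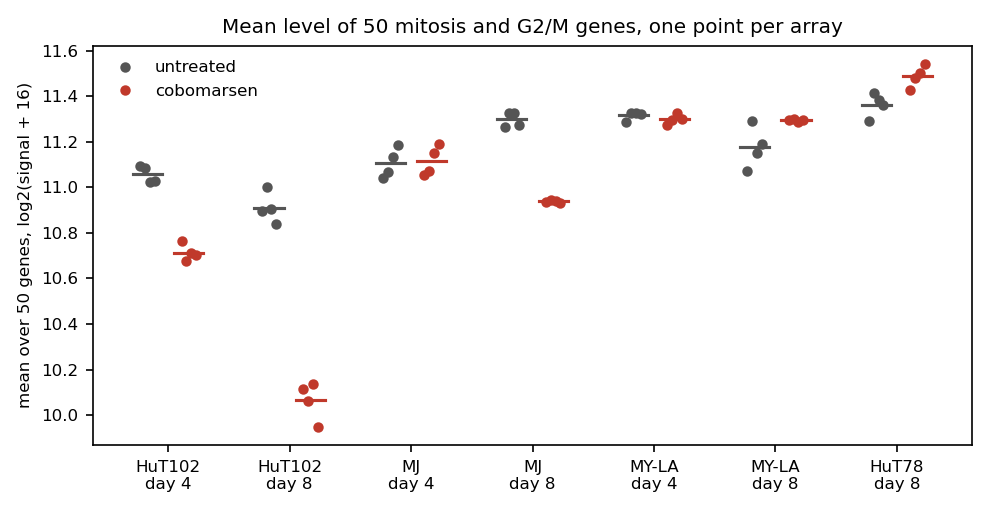
Mean log2(signal + 16) of the 50 genes on each array (points) with group means (bars), by line, day and treatment. The cobomarsen arrays of HuT102 lie below the untreated ones on days 4 and 8, those of MJ on day 8, and those of HuT78 lie above.

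In HuT102 cobomarsen went with a fall of nearly the whole mitotic set. On day 8, 47 of the 50 genes fell, 1 (CDC20) rose, and CKS2 (-0.12) and SKA3 (0.05) did not pass the test, against 40.3% of all genes called, 19.1% higher and 21.3% lower. The median log2 change of the 50 was -0.91, against 0.00 over all genes tested. On day 4, 34 of 50 fell and the other 16 did not pass the test (of all genes 23.1% were called, 10.1% higher and 13.1% lower), with a median of -0.34 against -0.03. All 34 genes that had fallen on day 4 were among the 47 of day 8 (72.3% of those 47), as nearly all members were. Signals of 45 members lay wholly below the untreated arrays on day 8 and those of 1 wholly above, against 20.8% and 19% of all genes. On day 4 those of 34 lay wholly below, against 15.5% of all genes (11.7% wholly above).

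Within the CDK1-cyclin switch 8 of 9 genes fell on day 8. CDK1, the kinase that drives entry into mitosis, had signals of 6454, 6113, 5901 and 6239 on the untreated arrays and 3044, 3046, 3336 and 2137 on the cobomarsen arrays. All 4 cobomarsen arrays were lower, the last of them lowest, and the log2 change was -1.11 ± 0.11 (adjusted p = 2.5e-12). On day 4 its arrays still overlapped and the change, -0.19 ± 0.11, did not pass the test (adjusted p = 0.21). CCNB1, the cyclin that partners CDK1 in mitosis, read 5316, 5213, 5357 and 4974 on the untreated arrays and 3858, 3262, 3653 and 3502 on the cobomarsen arrays on day 4. On day 8 it read 4129, 4431, 4234 and 3898 on the untreated arrays and 2272, 2056, 2296 and 1710 on the cobomarsen arrays. The groups were separate on both days, with a log2 change of -0.55 ± 0.08 (adjusted p = 3.5e-07) and then a log2 change of -1.005 ± 0.08 (adjusted p = 2.0e-15). CCNA2, cyclin A, went from 3907 ± 239.9 untreated and 2797 ± 109 with cobomarsen (SD, n = 4) on day 4, a log2 change of -0.48 ± 0.08 (adjusted p = 7.3e-06), to 3221 ± 414 untreated and 1540 ± 108 with cobomarsen (SD, n = 4) on day 8, a log2 change of -1.05 ± 0.08 (adjusted p = 8.2e-16).

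FOXM1, the transcription factor that activates many G2/M genes, read 1326, 1316, 1317 and 1299 on the untreated arrays and 786, 844, 580.4 and 671 on the cobomarsen arrays on day 4. Its untreated arrays lay close together and every cobomarsen array was lower, with a log2 change of -0.87 ± 0.18 (adjusted p = 0.00015). FOXM1 on day 8 read 1122, 1438, 1022 and 945 on the untreated arrays and 521, 548, 521 and 609 on the cobomarsen arrays, again without overlap, with a log2 change of -1.01 ± 0.18 (adjusted p = 5.6e-06). CDC25C, a phosphatase that activates CDK1, did not pass the test on day 4 (-0.23 ± 0.11, adjusted p = 0.12) and fell by day 8 (-0.84 ± 0.11, adjusted p = 6.0e-09).

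All 6 mitotic kinases and passenger proteins fell on day 8, 5 of them already on day 4. AURKB, the kinase of the chromosomal passenger complex, read 1557, 1706, 1612 and 1436 on the untreated arrays and 851, 951, 733 and 789 on the cobomarsen arrays on day 8. The groups did not overlap, with a log2 change of -0.92 ± 0.11 (adjusted p = 7.9e-10). Its scaffold INCENP changed by -0.88 ± 0.19 (adjusted p = 0.00010) and BIRC5 (survivin) by -0.87 ± 0.08 (adjusted p = 2.4e-13). PLK1, a kinase needed for centrosome maturation and mitotic entry, read 618, 686, 628 and 579 on the untreated arrays and 336, 341, 416 and 276 on the cobomarsen arrays on day 8. The highest cobomarsen array was below the lowest untreated array, with a log2 change of -0.86 ± 0.13 (adjusted p = 1.5e-07), and PLK4, which licenses centriole duplication, changed by -1.08 ± 0.08 (adjusted p = 9.2e-16).

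The spindle checkpoint and APC/C group split. BUB1B, the checkpoint kinase BubR1, read 3252, 3532, 2959 and 2937 on the untreated arrays and 1552, 1600, 1614 and 1427 on the cobomarsen arrays on day 8. Every cobomarsen array lay far below the lowest untreated array, with a log2 change of -1.02 ± 0.06 (adjusted p = 3.3e-20). Of the 8 genes 7 fell and CDC20, the activator that opens the APC/C at anaphase, rose: it read 3728, 3895, 3479 and 3394 on the untreated arrays and 4195, 4341, 4131 and 4461 on the cobomarsen arrays. All cobomarsen arrays of CDC20 were above all untreated ones, with a log2 change of 0.24 ± 0.07 (adjusted p = 0.0060). Its substrate PTTG1, securin, which holds separase inactive, fell instead. PTTG1 read 7363, 6354, 6400 and 6343 on the untreated arrays and 3987, 3881, 4392 and 3519 on the cobomarsen arrays, with an untreated array at the top that stood apart from the other 3, and a log2 change of -0.74 ± 0.08 (adjusted p = 8.8e-11). BUB3 (-0.20 ± 0.06, adjusted p = 0.0021) was at the low end of the group, and with the mean of all its probe sets its change turned to 0.13 and lost the call (adjusted p = 0.20). That mean takes in 2 BUB3 probe sets too dim to be tested (mean signals 72.6 and 57.1), while the 4 tested all had negative changes.

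Centromere and kinetochore genes fell in 8 of 9 cases on day 8 and in 5 of 9 on day 4. CENPA, the histone H3 variant that marks centromeres, read 1261, 1171, 1276 and 1214 on the untreated arrays and 754, 1077, 813 and 887 on the cobomarsen arrays on day 4. By day 8 the signals were 1143, 1046, 1013 and 907 on the untreated arrays and 572, 548, 479 and 372 on the cobomarsen arrays. There was no overlap on either day, with a log2 change of -0.48 ± 0.11 (adjusted p = 0.00068) and a log2 change of -1.05 ± 0.11 (adjusted p = 2.0e-11). SPC25, a subunit of the NDC80 complex that binds microtubules, read 718, 718, 716 and 644 on the untreated arrays and 283, 271, 393 and 251 on the cobomarsen arrays on day 8, with separate groups and a log2 change of -1.20 ± 0.10 (adjusted p = 1.4e-14). Its partners NUF2 (-1.08), NDC80 (-1.01) and SPC24 (-0.85) fell as well on the log2 scale, the last not with the mean of all its probe sets. SKA1, which couples kinetochores to moving microtubule ends, changed by -1.20 ± 0.16 (adjusted p = 1.6e-08), whereas SKA3 of the same complex stood at 0.05 ± 0.17 (adjusted p = 0.85).

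The largest change of any member on day 8 was in a kinesin. KIF23 (MKLP1), the motor of the centralspindlin complex in cytokinesis, read 573, 739.9, 707 and 654 on the untreated arrays and 225, 139.6, 149 and 228 on the cobomarsen arrays. The highest cobomarsen array was less than the lowest untreated one by a wide margin, and the change of -1.79 ± 0.13 (adjusted p = 2.3e-16) is 3.46-fold on the log2(signal + 16) scale. KIF20A (MKLP2), which brings the passenger complex to the central spindle, read 1747, 1844, 2045 and 1931 on the untreated arrays and 1250, 1038, 1355 and 1152 on the cobomarsen arrays on day 4. Day 8 gave 1707, 1674, 1690 and 1541 on the untreated arrays and 634, 499.7, 844 and 852 on the cobomarsen arrays. It was lower on every cobomarsen array on both days, with a log2 change of -0.66 ± 0.11 (adjusted p = 4.7e-06) and a log2 change of -1.24 ± 0.11 (adjusted p = 6.6e-14). All 8 kinesins fell on day 8, with a median of -0.96, down to the smallest change of -0.63 for KIF14.

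All 8 genes of the spindle and cytokinesis group fell on day 8, with a median of -1.04. PRC1, which bundles the microtubules of the anaphase midzone, read 4057, 3919, 4244 and 4002 on the untreated arrays and 2535, 2338, 2545 and 2766 on the cobomarsen arrays on day 4. On day 8 it read 3848, 3903, 3531 and 3477 on the untreated arrays and 1675, 1642, 1575 and 1482 on the cobomarsen arrays. Its arrays were tight and separate on both days, with a log2 change of -0.67 ± 0.05 (adjusted p = 5.4e-15) and a log2 change of -1.20 ± 0.05 (adjusted p = 1.8e-25). ECT2, which activates RhoA at the cleavage furrow, changed by -1.19 ± 0.14 (adjusted p = 3.1e-10) and ANLN, a scaffold of the contractile ring, by -0.98 ± 0.10 (adjusted p = 2.9e-11) on day 8. MKI67, the Ki-67 protein that coats mitotic chromosomes, read 1581, 2376, 1677 and 1806 on the untreated arrays and 1107, 918, 1037 and 1115 on the cobomarsen arrays on day 8, with no overlap and a log2 change of -0.81 ± 0.11 (adjusted p = 2.0e-08).

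The change was larger on day 8 than on day 4 in HuT102 when that difference was tested. The log2 change was more negative on day 8 for 34 of 50 genes and more positive for 1, CDC20 (0.38), where 7.18% of all genes differed, 3.21% more positive and 3.97% more negative; the median difference was -0.55. KIF23 differed by -1.10 ± 0.19 (adjusted p = 4.3e-05), CDK1 by -0.92 ± 0.15 (adjusted p = 3.2e-05) and NUSAP1, a microtubule bundler at chromosomes, by -0.65 ± 0.08 (adjusted p = 2.0e-08). The upper quartile of the arrays also moved with treatment on day 8 (449 with cobomarsen, 423 untreated, without overlap); with quantile normalization, which levels it, 49 members were called. Of the calls in HuT102, 44 of 48 on day 8 and 22 of 34 on day 4 were kept under every other processing tried, arrays left out included. Those of KIF23 and AURKB on day 4 were among those lost. Here and below, a call was judged only in the settings in which its gene was tested. The filter at the 75th percentile tested 44 of the 50 members on day 8 and 47 on day 4.

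Other genes of the cell cycle in HuT102 followed in part. On day 8, 27 of 29 genes of DNA replication and the G1/S transition fell and 1 rose (median -0.80), as did 15 of 18 genes of condensin, cohesin and separase with 1 rising (median -0.49) and 17 of 23 other kinetochore genes with 1 rising (median -0.48). Among the 16 APC/C subunits and regulators, 6 fell and 3 rose, and among 20 genes of the DREAM, MuvB and E2F factors 7 fell and 3 rose. Of all genes 40.3% were called in this comparison, 19.1% higher and 21.3% lower, and no list was tested as a set. The related genes named here and for the other lines were picked as called genes with the largest changes on their lists. They do not stand for the other genes listed. Counts for a further list, of 9 G1 cyclins and CDKs, are not given for any line. The activator MYBL2 (B-MYB) changed by -1.06 ± 0.15 (adjusted p = 7.3e-08) and the repressor E2F8 by -1.57 ± 0.18 (adjusted p = 2.1e-10). CDK2, the kinase of S phase, changed by -0.96 ± 0.08 (adjusted p = 1.3e-15), NCAPH of condensin by -1.10 ± 0.10 and CENPI of the inner kinetochore by -1.32 ± 0.14. CDKN1C, the CDK inhibitor p57, rose by 1.95 ± 0.24 (adjusted p = 1.2e-09), among 3 higher and 3 lower of the 8 CDK inhibitors tested.

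In MJ the same genes were little moved on day 4 and lower on day 8. On day 8, 33 of 50 fell and 1, PTTG1, rose, where 34% of all genes were called, 15.3% higher and 18.7% lower; the median was -0.37 against -0.02. On day 4, 7 rose and 5 fell with 27.4% of all genes called (13.2% higher and 14.3% lower), and the median was -0.01. The share of members called on day 4, 12 of 50, was near that of all genes. The 7 that rose on day 4 (CCNB2, BUB1, PTTG1, CENPF, KIF14, HMMR and NUSAP1) shared no gene with the 33 that fell on day 8, and the 5 that fell on day 4 (CDK1, CKS1B, BUB1B, MAD2L1 and CDC20) were all among those 33. On day 8 the signals of 34 members lay wholly below the untreated arrays and those of 1 wholly above, against 22.9% and 19.4% of all genes. On day 4 they were 8 and 5, against 16.4% and 15.2%. Calls kept under every other processing tried were 6 of 12 on day 4 (PTTG1, KIF14, HMMR, NUSAP1, BUB1B and CDC20) and 26 of 34 on day 8.

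CDK1 in MJ read 6145, 6952, 7104 and 8332 on the untreated arrays and 5361, 5623, 6113 and 5954 on the cobomarsen arrays on day 4. By day 8 the signals were 7774, 8290, 7784 and 8075 on the untreated arrays and 5391, 4516, 5106 and 5687 on the cobomarsen arrays. The groups were separate on both days, with a log2 change of -0.30 ± 0.11 (adjusted p = 0.032) and a log2 change of -0.63 ± 0.11 (adjusted p = 5.3e-06), and the day 4 call was not kept under every other processing tried. CCNB1 stood at 7040 ± 373 untreated and 5466 ± 235 with cobomarsen (SD, n = 4) on day 8, a log2 change of -0.36 ± 0.08 (adjusted p = 0.00021). FOXM1 read 1238, 1374, 1375 and 1561 on the untreated arrays and 857, 967, 909 and 827 on the cobomarsen arrays on day 8, every cobomarsen array below the untreated ones, with a log2 change of -0.63 ± 0.18 (adjusted p = 0.0040).

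Among the mitotic kinases and passenger proteins 5 of 6 fell in MJ on day 8, and among checkpoint and APC/C genes 6 of 8. PLK1 read 912, 873, 935 and 739 on the untreated arrays and 616, 572, 551 and 488 on the cobomarsen arrays, without overlap, with a log2 change of -0.62 ± 0.13 (adjusted p = 8.2e-05). BUB1B read 3978, 4031, 4465 and 4089 on the untreated arrays and 3349, 3346, 3625 and 3567 on the cobomarsen arrays on day 4. Day 8 gave 4843, 5155, 4927 and 5373 on the untreated arrays and 3251, 3002, 2853 and 3165 on the cobomarsen arrays. The gap between its groups was wider on day 8, with a log2 change of -0.25 ± 0.06 (adjusted p = 0.00082) and then a log2 change of -0.72 ± 0.06 (adjusted p = 1.4e-14). CDC20, which rose in HuT102, fell in MJ: it read 4667, 4539, 4808 and 4435 on the untreated arrays and 2639, 2815, 2699 and 2843 on the cobomarsen arrays. The 2 groups were far apart, with a log2 change of -0.74 ± 0.07 (adjusted p = 4.0e-12), and on day 4 the change was -0.31 ± 0.07 (adjusted p = 0.00075). PTTG1 was the member that rose, and read 13011, 12333, 13422 and 12064 on the untreated arrays and 14905, 14294, 14039 and 16354 on the cobomarsen arrays. Its groups did not overlap but lay close, with a log2 change of 0.23 ± 0.08 (adjusted p = 0.026), and the call was lost without untreated array 2 or 4 or cobomarsen array 4 (adjusted p = 0.065, 0.079 and 0.11).

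Kinetochore genes fell in 6 of 9 cases in MJ, kinesins in 5 of 8 and spindle and cytokinesis genes in 4 of 8 on day 8. CENPE, the kinesin that carries chromosomes to the spindle equator, changed by -0.60 ± 0.12 (adjusted p = 7.5e-05) and SKA1 by -0.52 ± 0.16 (adjusted p = 0.0084). KIF20A read 1600, 1860, 1819 and 1783 on the untreated arrays and 1087, 1177, 1176 and 882 on the cobomarsen arrays, with separate groups and a log2 change of -0.71 ± 0.11 (adjusted p = 4.5e-07). KIF23, the member that moved most in HuT102, read 1016, 1126, 1082 and 935 on the untreated arrays and 678, 779, 719.9 and 709 on the cobomarsen arrays in MJ, also separate but closer, with a log2 change of -0.52 ± 0.13 (adjusted p = 0.0016); with the mean of all its probe sets that call was lost (adjusted p = 0.06). MKI67 read 1427, 1807, 1881 and 1879 on the untreated arrays and 1219, 1069, 1118 and 1036 on the cobomarsen arrays, with 1 low untreated array that still stood above every cobomarsen array, and a log2 change of -0.64 ± 0.11 (adjusted p = 3.9e-06). PRC1 read 5355, 5603, 5637 and 5426 on the untreated arrays and 4464, 4362, 4439 and 4508 on the cobomarsen arrays, tight and separate, with a log2 change of -0.31 ± 0.05 (adjusted p = 3.2e-06).

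All 50 differences between the day 8 and the day 4 change were negative in MJ, and 12 passed the test, where 1.38% of all genes differed (0.386% more positive and 0.991% more negative); the median difference was -0.39. BUB1B (-0.47 ± 0.08, adjusted p = 0.00078), NUSAP1 (-0.35 ± 0.08, adjusted p = 0.010) and PRC1 (-0.32 ± 0.07, adjusted p = 0.015) were the 3 kept under every other processing tried. The count of 12 fell to 4 without day 4 untreated array 1 or day 4 cobomarsen array 3, to 5 without day 8 untreated array 2 or 3, and to 7 without day 4 cobomarsen array 4 or day 8 cobomarsen array 1, 2 or 3. It was 23 with only the arrays of MJ in the model and 6 without the mean-variance trend. Upper quartiles moved with treatment without overlap on day 4 (437 with cobomarsen, 417 untreated) and day 8 (449 and 431), as did the GAPDH 3′ to 5′ signal ratio on day 8 (0.930 and 0.911); under quantile normalization 33 members were called on day 8 and 14 on day 4.

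Related genes in MJ moved mostly down on day 8: 21 of 29 replication and G1/S genes fell and 2 rose (median -0.37), 14 of 23 other kinetochore genes fell, and 12 of 18 condensin, cohesin and separase genes fell and 1 rose. Of 16 APC/C genes 7 fell. Of all genes 15.3% were called higher and 18.7% lower in this comparison, and no list was tested as a set. E2F7, a repressor of cell cycle genes, changed by -1.39 ± 0.08 (adjusted p = 1.8e-19) and CDK2 by -0.64 ± 0.08 (adjusted p = 6.1e-10). Against that, 5 of 9 genes on the list of CDK inhibitors rose and 4 fell, CDKN1C by 1.27 ± 0.24 (adjusted p = 1.8e-05), and the kinase WEE1, which holds CDK1 inactive, rose by 0.99 ± 0.12 (adjusted p = 1.6e-09), as did GMNN (geminin), an inhibitor of replication licensing, by 0.64 ± 0.09 (adjusted p = 2.0e-08).

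**Figure D3:**
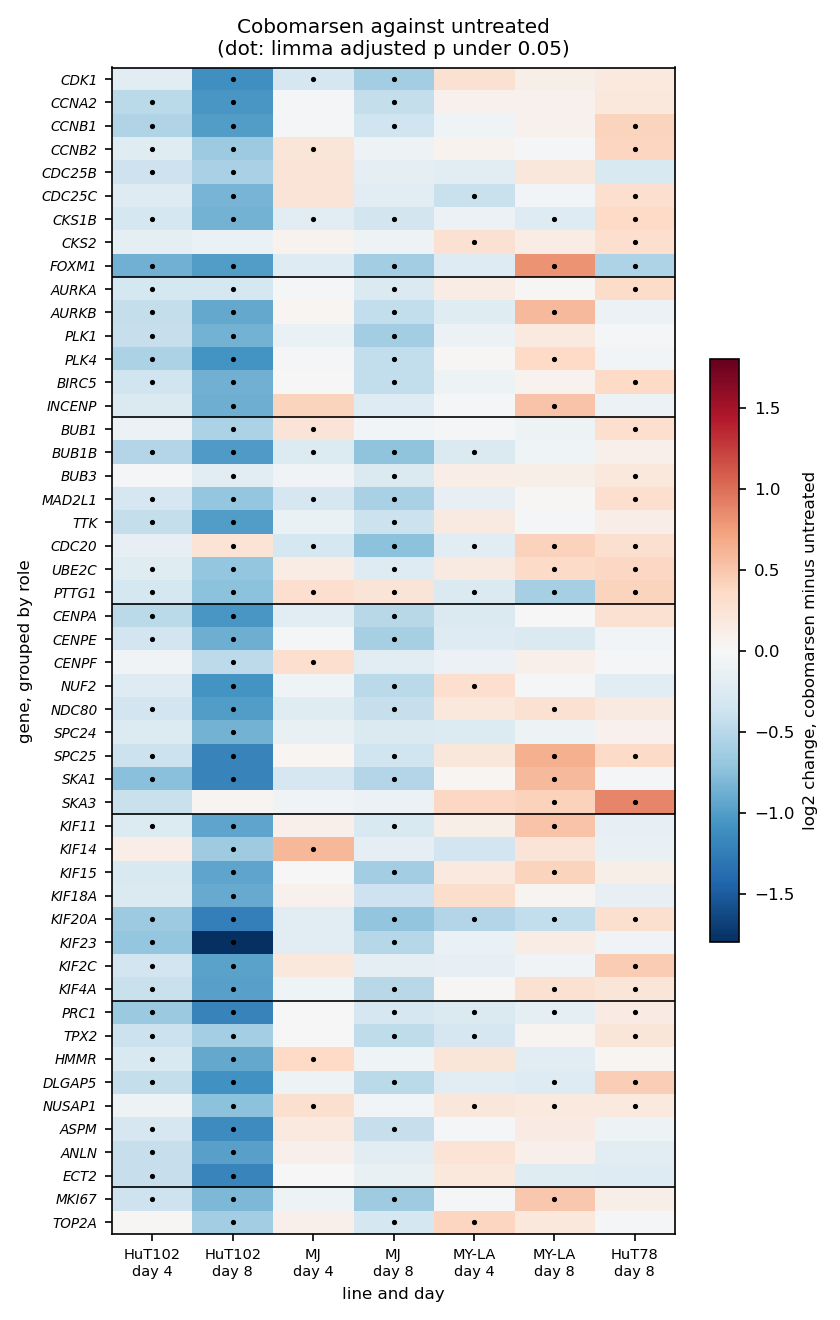
Log2 change (cobomarsen minus untreated) of the 50 genes, in rows by role, in the 7 comparisons of line and day; blue is lower, red is higher, and a dot marks an adjusted p under 0.05. Cells that are both blue and marked number 34 in HuT102 on day 4, 47 in HuT102 on day 8 and 33 in MJ on day 8; on day 8 the marked cells are red for 15 of 20 genes in MY-LA and 22 of 23 in HuT78.

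In MY-LA members moved in both directions. On day 8, 15 of 50 rose and 5 fell, where 42% of all genes were called, 23.6% higher and 18.4% lower, and the median of 0.09 lay beside 0.02 over all genes. The share of members called, 20 of 50, was near that of all genes. On day 4, 4 rose (CKS2, NUF2, NUSAP1 and TOP2A) and 7 fell (CDC25C, BUB1B, CDC20, PTTG1, KIF20A, PRC1 and TPX2), with 26.4% of all genes called (13.4% higher and 12.9% lower) and a median of -0.03. Of the members called on day 4, PTTG1, KIF20A and PRC1 fell on both days and NUSAP1 rose on both. Calls kept under every other processing tried were 5 of 11 on day 4 and 14 of 20 on day 8, those of NUSAP1 not among them. Members whose groups did not overlap numbered 10 higher and 3 lower on day 8, against 22.7% and 18.1% of all genes, and 6 and 6 on day 4, against 13% and 12.6%.

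FOXM1 rose most among the members in MY-LA on day 8, and read 1123, 978, 874 and 887 on the untreated arrays and 1462, 1837, 1794 and 1682 on the cobomarsen arrays. All cobomarsen arrays were above all untreated ones, with a log2 change of 0.80 ± 0.18 (adjusted p = 0.00020). On day 4 FOXM1 read 1437, 1471, 1301 and 1512 on the untreated arrays and 1372, 1309, 1352 and 904 on the cobomarsen arrays, overlapping, with a cobomarsen array that stood apart at the bottom, and did not pass the test (adjusted p = 0.38). AURKB read 2719, 3238, 2674 and 2864 on the untreated arrays and 3931, 4925, 4289 and 4146 on the cobomarsen arrays on day 8, separate, with a log2 change of 0.59 ± 0.11 (adjusted p = 1.6e-05), and SPC25 read 584, 682, 646 and 642 on the untreated arrays and 1045, 961, 991 and 1001 on the cobomarsen arrays, separate, with a log2 change of 0.63 ± 0.10 (adjusted p = 7.2e-07). MKI67 read 2634, 3067, 2208 and 2296 on the untreated arrays and 3199, 3755, 3620 and 3574 on the cobomarsen arrays, with the lowest cobomarsen array above the highest untreated one, and a log2 change of 0.48 ± 0.11 (adjusted p = 0.00032). KIF11, the motor that separates spindle poles, changed by 0.52 ± 0.09 (adjusted p = 4.1e-06). CDC20 read 4361, 5389, 4861 and 4356 on the untreated arrays and 5650, 6831, 6558 and 6136 on the cobomarsen arrays, separate, with a log2 change of 0.41 ± 0.07 (adjusted p = 7.2e-06).

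The 5 members that fell in MY-LA on day 8 were PTTG1, KIF20A, DLGAP5, CKS1B and PRC1. PTTG1 read 17914, 20676, 22493 and 20093 on the untreated arrays and 12799, 13780, 13322 and 13649 on the cobomarsen arrays, with a wide gap between the groups and a log2 change of -0.60 ± 0.08 (adjusted p = 4.0e-08). KIF20A read 2379, 2442, 2179 and 2345 on the untreated arrays and 1565, 1555, 1595 and 1755 on the cobomarsen arrays on day 4. On day 8 it read 1659, 2235, 1809 and 1835 on the untreated arrays and 1339, 1410, 1350 and 1407 on the cobomarsen arrays. It was lower on all cobomarsen arrays on both days, with a log2 change of -0.53 ± 0.11 (adjusted p = 0.00016) and a log2 change of -0.44 ± 0.11 (adjusted p = 0.00078). PRC1 changed by -0.16 ± 0.05 (adjusted p = 0.0094) on day 8, a call lost with quantile normalization (adjusted p = 0.06) and without untreated array 2 (adjusted p = 0.062). All 5 also fell in HuT102 on day 8 (10.6% of the 47 there), where 47 of all 50 members fell. In MJ 4 of them fell, among 33 of the 50.

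The change differed between days in MY-LA for 11 members, 9 of them more positive on day 8, where 17.1% of all genes differed (9.61% more positive and 7.47% more negative). FOXM1 (1.03 ± 0.25, adjusted p = 0.0027), AURKB (0.80 ± 0.15, adjusted p = 0.00022) and CDC20 (0.60 ± 0.10, adjusted p = 3.6e-05) kept that call under every other processing tried. The count dropped to 5 without day 4 cobomarsen array 4, to 6 without day 8 untreated array 3, and to 7 without day 8 cobomarsen array 3 or untreated array 4, and was 7 with no filter, with quantile normalization or without the trend.

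Most genes on the lists of replication, other kinetochore, and condensin, cohesin and separase genes rose in MY-LA on day 8. Of 29 replication and G1/S genes 22 rose (median 0.52), as did 14 of 23 other kinetochore genes with 1 falling (median 0.24) and 11 of 18 condensin, cohesin and separase genes (median 0.28). Of 18 DREAM, MuvB and E2F genes tested 8 rose and 2 fell. E2F2, an activator of S phase genes, rose by 1.94 ± 0.17 (adjusted p = 2.4e-13), E2F8 by 1.52 ± 0.18 (adjusted p = 7.3e-10) and CCNE2, cyclin E, by 1.71 ± 0.12 (adjusted p = 1.3e-17). MCM10, which helps to fire replication origins, rose by 1.24 ± 0.09, GMNN by 1.42 ± 0.09 and SGO1 (shugoshin), the guard of centromeric cohesion, by 1.10 ± 0.17. Of 16 APC/C genes 6 fell and 2 rose, beside 18.4% of all genes lower and 23.6% higher, with no test of the list. FBXO5 (EMI1), an APC/C inhibitor, rose by 0.65 ± 0.10 (adjusted p = 5.6e-07).

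In HuT78, the line with little miR-155 host transcript, 22 members were called higher and 1, FOXM1, lower on day 8, where 22% of all genes were called, 10.6% higher and 11.3% lower. On 13 members the cobomarsen arrays lay wholly above the untreated ones, against 4.41% of all genes (4.63% lay wholly below). The median was 0.16 against -0.05. These calls rest on the spread of all 14 groups: with the 8 HuT78 arrays alone limma called none of the 50 (21 at an unadjusted p under 0.05, where 23.5% of all genes were; smallest adjusted p 0.146). Cobomarsen arrays 2 to 4 stand apart from the other HuT78 arrays, with upper quartiles of 380.2 to 385 against 431 on array 1 and 422 to 443 untreated. With array 1 as the only cobomarsen array, taken to vary like the other groups, limma called none (1 at an unadjusted p under 0.05, where 2.72% of all genes were). The count was 14 without untreated array 1 and 13 without cobomarsen array 4, and none of the 23 calls was kept under every other processing tried.

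The values themselves were as follows. CCNB1 read 4553, 4787, 5165 and 5524 on the untreated arrays and 5875, 6957, 6142 and 7437 on the cobomarsen arrays, with every cobomarsen array above the untreated ones and a log2 change of 0.40 ± 0.08 (adjusted p = 0.00062). PTTG1 read 7186, 7847, 7929 and 8504 on the untreated arrays and 8263, 10764, 12031 and 10676 on the cobomarsen arrays, overlapping through cobomarsen array 1, with a log2 change of 0.40 ± 0.08 (adjusted p = 0.00079). FOXM1 read 1802, 1894, 1770 and 1371 on the untreated arrays and 1890, 834, 1800 and 623 on the cobomarsen arrays. Cobomarsen arrays 2 and 4 were low and arrays 1 and 3 among the untreated values, with a log2 change of -0.55 ± 0.18 (adjusted p = 0.021), and with array 1 alone the change turned to 0.15. MKI67 read 4799, 5611, 5142 and 5005 on the untreated arrays and 5466, 5132, 5899 and 5615 on the cobomarsen arrays, overlapping, and did not pass the test (0.11 ± 0.11, adjusted p = 0.55). CENPA read 1826, 1857, 1831 and 1804 on the untreated arrays and 2059, 2111, 2639 and 2125 on the cobomarsen arrays, with array 3 standing apart at the top, and did not pass it either (adjusted p = 0.061).

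**Figure D4:**
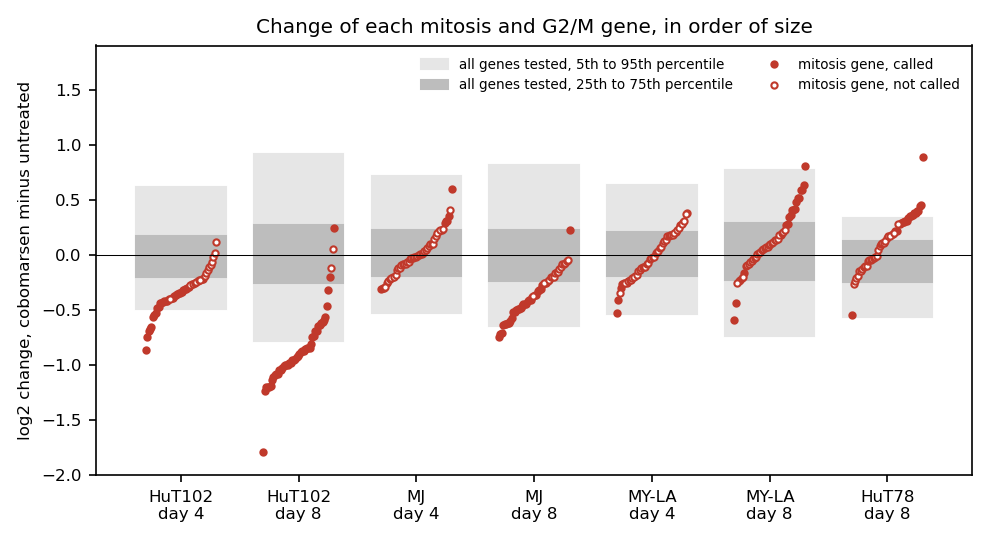
Log2 changes of the 50 genes in rank order (points) in each comparison, beside bars for the 5th to 95th and 25th to 75th percentiles of all genes tested. In HuT102 on day 8 the points have a median of -0.91 against 0.00 for all genes, in MJ on day 8 -0.37 against -0.02, and in MY-LA on day 8 0.09 against 0.02.

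Untreated cells also differed between days, which the comparisons within a day leave out. In untreated HuT102, 6 members were lower on day 8 than on day 4 (8.72% of all genes called, 4.59% higher and 4.13% lower), CDC20 by -0.41 ± 0.07 (adjusted p = 6.3e-05) and CCNB1 by -0.32 ± 0.08 (adjusted p = 0.0052). In untreated MJ 7 were higher (1.68% called, 1.19% higher and 0.491% lower), with KIF14 at 0.75 ± 0.15 and CENPE at 0.55 ± 0.12. In untreated MY-LA 11 were lower (13.1% called, 6.61% higher and 6.46% lower), led by MKI67 at -0.69 ± 0.11 (adjusted p = 2.1e-05) and AURKB at -0.59 ± 0.11; that count was 17 without day 8 untreated array 2, 7 without array 3 and 7 with the mean of all probe sets. FOXM1, AURKB and MKI67 thus stood lower in the untreated MY-LA arrays of day 8, the arrays against which their rise was measured, although the calls of FOXM1 and AURKB in the untreated arrays were not kept under every other processing tried. In the same way CDC20 was lower in the untreated HuT102 arrays of day 8 against which its rise in that line was measured. In untreated MJ arrays BUB1B (0.29 ± 0.06, adjusted p = 0.0028) and PRC1 (0.23 ± 0.05, adjusted p = 0.0080) were higher on day 8, against which their fall was measured, and the untreated mean of the 50 genes went from 11.11 to 11.30.

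The lines differed in the day 8 change itself. An F-test over the 4 lines called 50 of 50 members, where it called 64.8% of all genes. HuT102 minus MJ, which share no arrays, was more negative for 32 members and more positive for CDC20 (0.98 ± 0.10, adjusted p = 5.2e-11), with 28.2% of all genes called (14.2% more positive and 14% more negative) and a median difference of -0.53. KIF23 (-1.27), ECT2 (-1.06), PTTG1 (-0.97) and PRC1 (-0.89) had the most negative differences in log2 change. HuT102 minus MY-LA was more negative for 45 members (39.1% called, 17.4% more positive and 21.7% more negative; median -0.95), with KIF23 at -1.93 ± 0.19, SPC25 at -1.83 ± 0.14 and FOXM1 at -1.81 ± 0.25. MJ minus MY-LA was more negative for 29 and more positive for 1, PTTG1 (0.82 ± 0.12; 33.8% called, 14.4% more positive and 19.4% more negative; median -0.48), with FOXM1 at -1.43 ± 0.25, CDC20 at -1.15 ± 0.10 and MKI67 at -1.12 ± 0.15.

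Of the 47 members that fell in HuT102 on day 8, 32 also fell in MJ (68.1% of the 47 and 97% of the 33). Of the 15 that rose in MY-LA, 13 were among the 47 (86.7% of the 15 and 27.7% of the 47). With 47 of all 50 members lower in HuT102, most of nearly any subset of members lies among them, so these overlaps are descriptions only. The 11 members that fell in HuT102 and MJ and rose in MY-LA were FOXM1, the kinases AURKB and PLK4, the APC/C enzyme UBE2C, the kinetochore genes NDC80, SPC25 and SKA1, the kinesins KIF11, KIF15 and KIF4A, and MKI67. Of these, the MJ calls of AURKB and KIF11 and the MY-LA call of NDC80 were not kept under every other processing tried. CDK1, CCNB1, BUB1B and PLK1 fell in both HuT102 and MJ and did not pass the test in MY-LA on day 8 (0.11 ± 0.11, 0.07 ± 0.08, -0.08 ± 0.06 and 0.18 ± 0.13). CKS1B, KIF20A, PRC1 and DLGAP5 fell in all 3 of HuT102, MJ and MY-LA on day 8. The MY-LA calls of PRC1 and DLGAP5 were not kept under every other processing tried. CDC20 and PTTG1, activator and substrate of the same ubiquitin ligase, moved in opposite directions to each other in each of these 3 lines: CDC20 by 0.24, -0.74 and 0.41 and PTTG1 by -0.74, 0.23 and -0.60 on the log2 scale in HuT102, MJ and MY-LA. It did not hold in every comparison: both rose in HuT78 (0.28 and 0.40) and both fell in MY-LA on day 4 (-0.19 and -0.26). In HuT102 on day 4 both changes were negative (-0.14 and -0.31), that of CDC20 not passing the test. In MJ on day 4 they were opposite (-0.31 and 0.31). The rise of PTTG1 in MJ on day 8 was not kept under every other processing tried. The pattern was noticed after the values had been seen.

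**Figure D5:**
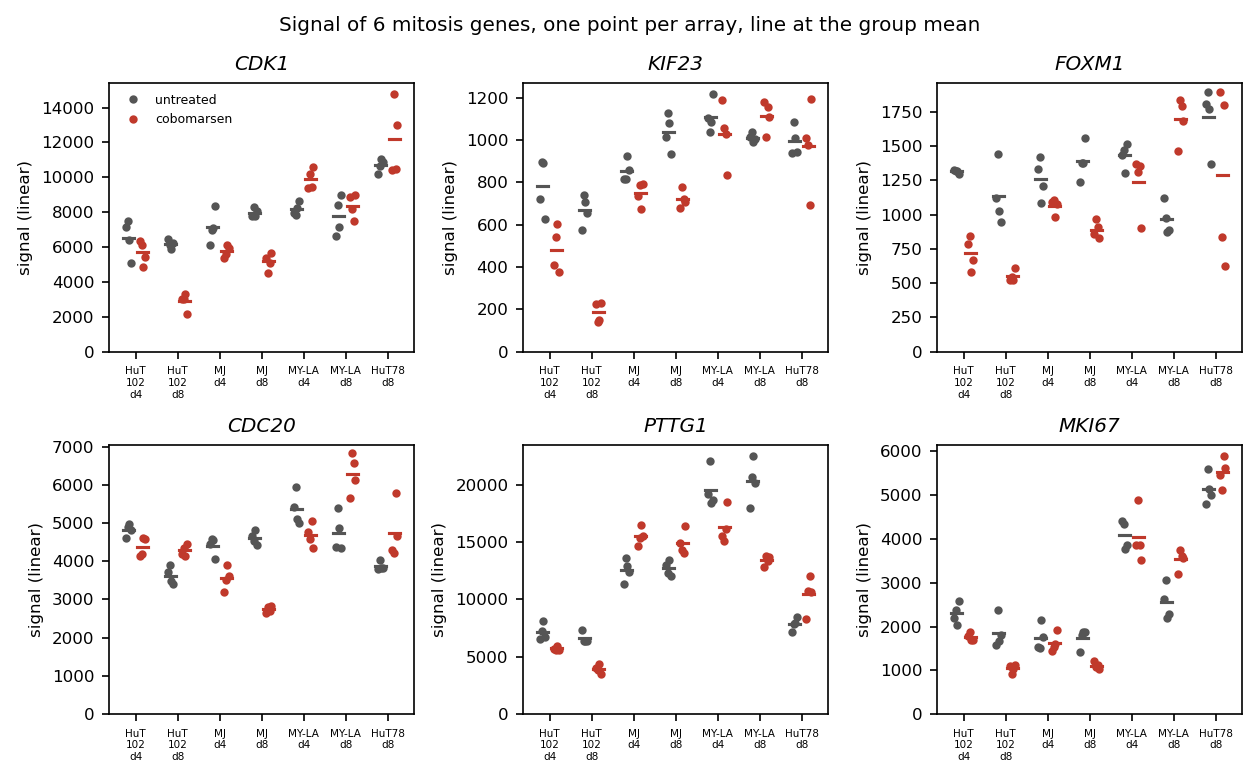
Signals of CDK1, KIF23, FOXM1, CDC20, PTTG1 and MKI67 on each array (points) with group means (bars), by line, day (d4, d8) and treatment. KIF23 with cobomarsen in HuT102 on day 8 lies between 139.6 and 228, below every other group, FOXM1 falls in HuT102 and MJ and rises in MY-LA on day 8, and CDC20 and PTTG1 go opposite ways on day 8 in HuT102, MJ and MY-LA but both rise in HuT78.

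The members varied together across groups more than within them. Over the 14 group means the median correlation of the 1225 pairs of members was 0.66 and 91.7% were positive, while for deviations of arrays from their group mean the median was 0.13 and 68.3% were positive; the points share lines, days and treatments, and the values are descriptions. Against the mean of the other members over the 14 groups, ASPM and KIF23 stood at 0.96, CDK1 at 0.94, CDC20 at 0.27, TTK at 0.04 and SKA3 at -0.17. The CHR letters stood beside these counts of response, none of them tested: 30 of 33 genes with them and 10 of 10 without fell in HuT102 on day 8, 21 of 33 and 5 of 10 fell in MJ, and 12 of 33 and 1 of 10 rose in MY-LA. Genes counted as without hold neither TTTGAA nor TTCGAA in the window, and other forms of the element were not searched for. Of the members, 26 have 1 probe set and 24 have several. The other probe sets that were tested were each set against the one used for the gene. Their sign was the same in 33 of 33 cases in HuT102 on day 8 and 33 of 35 in MJ on day 8. It was the same in 25 of 36 in MY-LA and 20 of 36 in HuT78 on day 8. On day 4 it was the same in 30 of 34 in HuT102, 24 of 35 in MJ and 20 of 36 in MY-LA. Where the probe set used and another of its gene were both called, they never had opposite directions. Such cases numbered 28 in HuT102, 13 in MJ, 3 in MY-LA and 5 in HuT78 on day 8. On day 4 they numbered 10 in HuT102 and 0 in MJ and MY-LA, where opposite calls could thus not be seen.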

How the data were processed

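Messenger RNA of 4 CTCL lines was measured on 56 Affymetrix arrays, 4 for each of 14 groups. Per the submitters' processing notes the arrays were summarised with MAS5, so the deposited values are linear probe set signal intensities, scaled by the authors to a common trimmed mean (500.1 with 2% trimmed from each end, on all arrays). The number of arrays limits the precision, and the files give no read depth. From 54675 probe sets, those with a single symbol in the platform annotation (41091) were kept, and each gene was read from its probe set with the highest mean signal, which gave 19775 genes. Values were analysed as log2(signal + 16). Genes whose mean log2 value on the compared arrays was under that of the median of all signals (74.0) were not tested.

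One model of all 14 groups was fitted with limma 3.58.1 in R 4.3.3 (empirical Bayes with a mean-variance trend, 42 residual degrees of freedom), with Benjamini-Hochberg adjustment over all genes tested and a threshold of 0.05. The same model gave the differences between days and between lines. Tested on simulated data for the HuT102 day 8 comparison over 19775 genes, the fit recovered 52% of 100 seeded changes of 0.5 and 83% of 100 seeded changes of 1 on the log2 scale, with 4 unchanged genes called. Promoters and the miRNA came from RefSeq tables. Counts, shares and figures were made with Python 3.11.15, NumPy 2.4.6, pandas 2.3.3 and Matplotlib 3.10.9.

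The 50 members and the lists of related genes were chosen with earlier results of these data known. All members may be named, and of each list of related genes up to 3 called genes with the largest absolute change in a comparison. Alternatives were another value added before log2 (1 or 64), no filter or one at the 75th percentile, quantile normalization, the mean of all probe sets of a gene, no trend, only the arrays compared or of the lines compared, each array left out in turn, and a block by neighbouring title numbers. A call counted as kept where it held in each alternative in which the gene was tested. A gene removed by a filter was not judged in that setting. Signals of different probe sets were not set against each other. Promoters of AURKA, BIRC5, BUB3, FOXM1, TPX2, TTK and UBE2C were not analysed here.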

Additional observations from a re-analysis of the deposited data

Results flagged for a closer look

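Single arrays stood apart from the other 3 of their group by Dixon's 95% limit in 9 of 224 groups of 4 tested, where chance gives about 1 in 20. An untreated MY-LA array of day 4 had a mean log2 level of 11.2883 over the 50 genes, against 11.32 to 11.33. FOXM1 read 904 on a cobomarsen array of MY-LA on day 4, against 1309 to 1372. AURKB read 2547 on a cobomarsen array of MJ on day 4, against 2166 to 2190. CDC20 read 4044 on an untreated HuT78 array, against 3788 to 3819, and CENPA read 2639 on a cobomarsen array of that line, against 2059 to 2125. PTTG1 read 7363 on an untreated HuT102 array of day 8, against 6343 to 6400. SPC25 read low on 1 untreated HuT102 array of each day, at 659 against 802.5 to 821.5 on day 4 and at 643.9 against 715.7 to 718.2 on day 8. MKI67 read 1427 on an untreated MJ array of day 8, against 1807 to 1881.

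The cobomarsen change differed between days for 35 members in HuT102, 12 in MJ and 11 in MY-LA, each by a test of the difference. On day 8 it differed between HuT102 and MJ for 33 members, between HuT102 and MY-LA for 45, between MJ and MY-LA for 30, and over the 4 lines for 50.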

How the results depend on the processing

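Leaving out each array in turn gave 28 to 33 members called in HuT102 on day 4 (34 with all arrays) and 48 to 48 on day 8 (48), 8 to 11 in MJ on day 4 (12) and 32 to 33 on day 8 (34), 9 to 13 in MY-LA on day 4 (11) and 17 to 20 on day 8 (20), and 13 to 27 in HuT78 (23). The day differences ranged from 32 to 36 in HuT102 (35), 4 to 14 in MJ (12) and 5 to 10 in MY-LA (11), and the untreated day differences from 4 to 9 (6), 5 to 10 (7) and 7 to 17 (11) in the same order. The line differences ranged from 31 to 35 for HuT102 minus MJ (33), 44 to 47 for HuT102 minus MY-LA (45), 29 to 32 for MJ minus MY-LA (30) and 49 to 50 for the F-test (50). In 337 of 364 counts over all alternatives the count stayed within 1.5 times its value and its balance kept its side. Beyond arrays left out, the MY-LA day difference went from 11 to 7 with no filter, quantile normalization or no trend, the untreated MY-LA difference to 7 with the mean of all probe sets, and the MJ day difference to 23 with only the arrays of that line and to 6 without the trend. HuT78 gave 0 calls by limma with only the arrays of the line (21 at an unadjusted p under 0.05), and 0 with cobomarsen array 1 alone (1 unadjusted); that setting and the use of only the 8 arrays compared were chosen after seeing the data. The balance of calls turned in MY-LA on day 4 without untreated replicate 2 (11 called, 6 higher and 5 lower) and in MJ on day 4 with only the 8 arrays compared (15 called, 7 higher and 8 lower). With the mean of all probe sets BUB3 turned to 0.13 in HuT102 on day 8 and the BUB1 difference between HuT102 and MY-LA to 0.0402; FOXM1 in HuT78 turned to 0.15 with array 1 alone. The cause was not tested. Quantile normalization moved the median of all genes by less than 0.1 in each comparison. The labels give no replicate numbers, so the model pairs no arrays. The numbers that end the titles alternate between untreated and cobomarsen arrays in HuT102, MJ and HuT78, not in MY-LA, and a replicate block by neighbouring numbers, chosen after seeing the data, gave 35, 48, 13, 34 and 24 calls (HuT102 and MJ on days 4 and 8, HuT78), day differences of 36 and 14, and line differences of 35, 45, 31 and 50. Over genes above the filter, neighbours' deviations from their group means correlated at 0.105 to 0.16 in HuT102 on day 4, -0.0647 to 0.0196 on day 8, -0.0274 to 0.0728 and 0.029 to 0.0429 in MJ, and -0.0867 to 0.263 in HuT78. Every untreated array was closest to its neighbour in MJ on day 8, and 3, 0, 2 and 2 of 4 were in HuT102 on days 4 and 8, MJ on day 4 and HuT78, a hint from the data and not the design.

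The scale does not separate fewer cells in G2 and mitosis from less transcript per cell, the platform reads mRNA and not protein or phosphorylation, and several of these proteins are controlled by destruction. Each is 1 established line, so the differences between lines describe these lines. The simulated data held 100 seeded changes of each size among 19775 genes, and 52% of those of 0.5 were recovered. In the real HuT102 day 8 comparison 40.3% of genes were called, which makes the adjusted threshold less strict. The recovered share therefore does not carry over to these genes, though changes can still be missed at 4 arrays a group.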
